A study of Mus musculus with 59 samples.

Results

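The genes described here are the mitochondrial carriers of the Slc25 family, and above all Slc25a26, the carrier of S-adenosylmethionine, in the brains of mice exposed before birth to valproic acid (VPA). The members were all genes whose probe annotation gave a single symbol beginning with Slc25a and a number. This gave 44 genes of the 18194 on the array, each represented by its probe set with the highest mean signal over all arrays. Slc25a26 was singled out on its measured signal: it was chosen by its difference between VPA and the other groups at E14.5, which went against that of most relatives, so the valproic acid contrasts of that stage are given below as descriptions, with counts past the threshold only beside those of all genes and no result read from a test.

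Messenger RNA was measured on 59 Affymetrix Mouse 430 2.0 arrays of C57BL/6 brain tissue, in 19 groups. Every dam, controls included, was given 3 oral doses, 1 each on E12.5 and E13.5 and the last on E14.5. The agents were VPA at 300 mg/kg, a drug used against epilepsy, its amide valpromide (VPM) at 300 mg/kg, or methylcellulose (MC) at 0.5%, the vehicle. Telencephalon was collected at E14.5, 3 h after the final dose, and hippocampus and forebrain at E18.5, each from VPA, VPM and MC groups of 3 arrays. Male offspring aged 12 to 13 weeks gave hippocampus and cortex in VPA+RW, VPA, MC+RW and MC groups of 3 arrays each, where RW marks a running wheel provided after weaning. A separate set held male hippocampus at P84 from VPA and MC offspring, with 4 arrays per group. The labels do not name litters, so p-values measure the spread between these arrays.

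Carriers of this family sit in the inner mitochondrial membrane and exchange small molecules that cannot cross it on their own, among them nucleotides, phosphate, amino acids, carboxylic acids and cofactors. A few relatives work in the outer membrane or in peroxisomes. S-adenosylmethionine, the methyl donor of most methylation reactions, is made in the cytosol, and Slc25a26 brings it into the matrix in exchange for S-adenosylhomocysteine, the product left after methyl transfer. In the matrix it serves the methylation of mitochondrial RNA and proteins and the synthesis of coenzyme Q and lipoic acid. Neurons and astrocytes are known to differ in their carriers for aspartate and glutamate.

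Promoter sequences are shown for 5 members on which the results below turn, chosen after their values had been seen. Slc25a10 and Slc25a30 were among the members with the highest VPA values at E14.5 and Slc25a24 was lower there, while Slc25a18 and Slc25a20 stood out between ages. Each window runs from 250 bases before to 50 bases after the gene's start, 5′ to 3′, from RefSeq on build GRCm38.p6. Capitals mark the CCAAT box (CCAAT) and the GC box (GGGCGG) on either strand.
Slc25a10, chr11:120491587-120491886, plus strand: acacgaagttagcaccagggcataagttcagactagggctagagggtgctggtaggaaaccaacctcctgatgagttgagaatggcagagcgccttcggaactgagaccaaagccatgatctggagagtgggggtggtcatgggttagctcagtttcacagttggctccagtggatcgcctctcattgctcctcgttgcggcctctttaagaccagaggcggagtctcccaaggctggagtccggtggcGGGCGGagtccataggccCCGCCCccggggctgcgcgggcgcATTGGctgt
Slc25a30, chr14:75786988-75787287, minus strand: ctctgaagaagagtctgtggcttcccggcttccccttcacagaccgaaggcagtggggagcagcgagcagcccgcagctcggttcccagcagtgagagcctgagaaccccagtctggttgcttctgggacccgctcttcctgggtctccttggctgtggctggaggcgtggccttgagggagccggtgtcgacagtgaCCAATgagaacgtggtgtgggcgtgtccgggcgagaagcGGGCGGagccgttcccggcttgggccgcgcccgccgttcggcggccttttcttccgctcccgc
Slc25a24, chr3:109122899-109123198, plus strand: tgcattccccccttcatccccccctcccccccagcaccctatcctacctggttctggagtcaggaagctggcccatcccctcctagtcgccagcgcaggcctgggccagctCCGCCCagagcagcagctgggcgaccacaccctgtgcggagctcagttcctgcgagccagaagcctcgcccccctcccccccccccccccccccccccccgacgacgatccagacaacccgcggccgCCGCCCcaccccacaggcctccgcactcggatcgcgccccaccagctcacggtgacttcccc
Slc25a18, chr6:120773518-120773817, plus strand: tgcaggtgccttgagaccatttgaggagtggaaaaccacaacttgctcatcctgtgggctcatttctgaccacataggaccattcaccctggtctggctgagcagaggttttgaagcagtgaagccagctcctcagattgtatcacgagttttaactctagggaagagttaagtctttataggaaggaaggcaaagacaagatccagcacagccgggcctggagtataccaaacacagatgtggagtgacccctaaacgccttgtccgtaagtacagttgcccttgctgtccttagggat
Slc25a20, chr9:108661886-108662185, plus strand: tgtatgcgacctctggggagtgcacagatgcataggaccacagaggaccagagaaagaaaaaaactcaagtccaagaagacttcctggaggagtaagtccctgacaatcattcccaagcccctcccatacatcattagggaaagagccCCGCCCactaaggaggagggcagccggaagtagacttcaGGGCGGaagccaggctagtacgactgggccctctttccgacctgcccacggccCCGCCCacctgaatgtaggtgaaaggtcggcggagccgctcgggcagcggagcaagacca
Promoters were found in the RefSeq table for 36 members, 46 windows in all, and Slc25a26 was not among them. A GC box was present in 38 of the 46 windows (82.6%), against 46.2% of the 21263 windows of protein-coding genes. The CCAAT box was found in 47.8% of member windows and 38.2% of coding windows, and the E-box CACGTG in 17.4% and 7.84%. The NRF1 motif was found in 4.35% of member windows and 6.38% of coding windows. Both strands were searched and none of these motifs contains another. The member windows had a median GC content of 59.3%, and the coding windows 56.3%. Among the printed windows Slc25a20 had 3 GC boxes, while Slc25a18 had neither motif. These matches describe the letters in the window and say nothing of what binds there.

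Every array was brought to a trimmed mean of 500 (2% trim) with a floor of 32 before log2, and a gene was tested in a set of arrays where at least 3 arrays (4 at P84) reached 100. Of the 44 members 41 were tested in at least 1 set and 34 in every set, while Slc25a31, Slc25a41 and Slc25a54 never reached the minimum. At E14.5 the test covered 35 members of 11074 genes. Signals of different genes come from different probes and were not set against each other. In bulk tissue, fewer cells of a type and less RNA per cell cannot be told apart. Choroid plexus set some arrays apart: the summed signal of its 6 marker genes was 20300 in 1 VPM array at E14.5 and 239 in the lowest VPM array, and in the E18.5 forebrain it was 508 to 4810 with VPA, against 20200 to 24000 with VPM and 17800 to 25400 with MC. It also varied widely within E18.5 hippocampus (995 to 27200 with VPM and 1610 to 29700 with MC), adult VPA cortex (892 to 10900) and P84 hippocampus (1770 to 17600 with VPA and 1300 to 18600 with MC). The red blood cell markers, 7 of 9 matched, summed at E14.5 to 6610 to 10000 with VPA, 2470 to 3210 with VPM and 11000 to 12700 with MC. The forebrain markers summed to 9130 to 9850, 9490 to 11400 and 13100 to 13600 in the same order. Of the red blood cell markers 4 were tested at E14.5, and for VPM against MC 2 were called lower and 1 higher. Sex was not balanced at E18.5: a female pattern of Xist was seen in 2 of 3 VPA, 1 of 3 VPM and 0 of 3 MC hippocampus arrays. In forebrain it was seen in 1, 1 and 2 of 3 in the same order. The part of these markers and of sex in the results was not tested.

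At E14.5 Slc25a26 was lower in the VPA arrays than in all others. The scaled signal was 46.2, 75.2 and 58.5 in VPA telencephalon, 255, 282 and 257 in VPM telencephalon and 230, 252 and 300 in MC telencephalon. The VPA arrays did not overlap either of the other groups, and the VPM and MC arrays overlapped each other. The log2 difference was -2.14 between VPA and MC (95% interval -2.54 to -1.74), a 4.41-fold difference. It was -2.17 between VPA and VPM (-2.57 to -1.77). Between VPM and MC it was 0.03 (-0.37 to 0.43), so at an equal dose the amide and the acid differed in this gene while the amide lay within the spread of the vehicle. These values chose the gene and are given as a description. The probe set used can match transcripts of more than one gene. The other Slc25a26 probe set, also at low signal, read 33.9, 45.9 and 22.1 with VPA, 75.7, 112 and 113 with VPM and 107, 80 and 71.9 with MC, with the VPA arrays again below the rest.

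Across all 19 groups the mean of Slc25a26 ran from 60 in E14.5 VPA telencephalon (arrays 46.2 to 75.2) to 460 ± 59.2 in adult MC cortex (SD, n = 3). When the groups were ordered by mean, the step from E14.5 VPA to the next group, E18.5 VPM hippocampus at 225 ± 29.2, (SD, n = 3), was larger than the SD of either group. The other 17 steps between neighbours were within the larger SD of the pair. The E14.5 VPA values chose the gene, so the size of that step is a description and nothing is read from it. Small steps between ordered neighbours do not measure how far embryonic and adult groups differ. The 8 other embryonic groups lay between 225 and 288, and the 10 adult and P84 groups between 331 and 460.

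**Figure D1:**
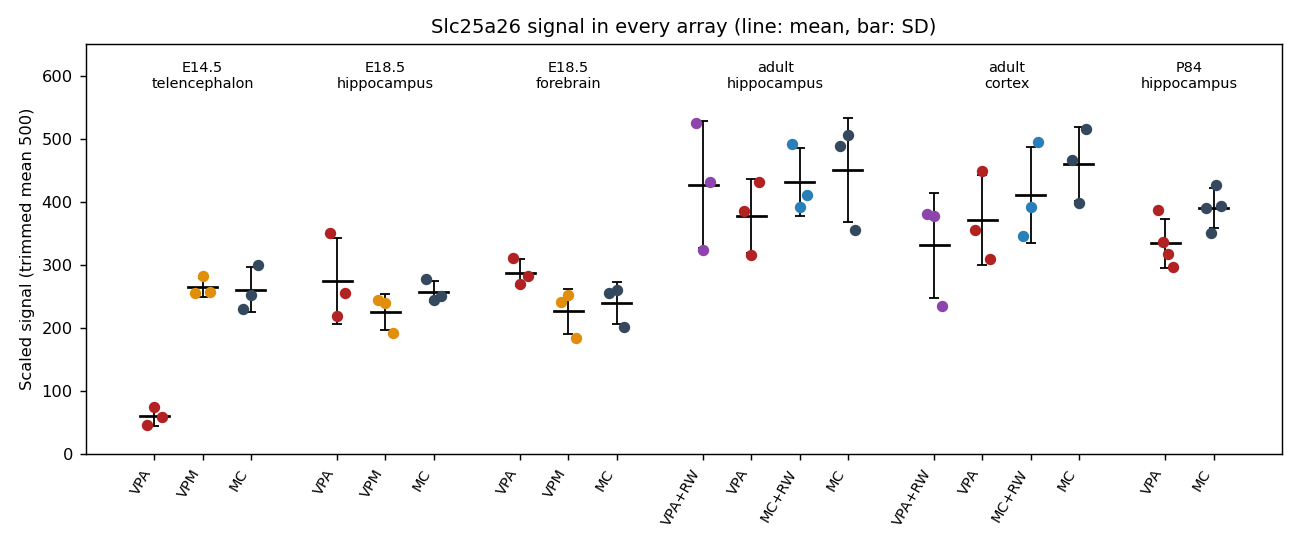
Scaled signal of Slc25a26 in each of the 59 arrays, by group, with tissue and age along the axis; points are arrays, horizontal lines group means and vertical bars SDs. The 3 VPA arrays of the E14.5 telencephalon lie between 46.2 and 75.2, below the arrays of the other groups, and the adult and P84 groups have means of 331 to 460.

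Most of the other carriers had a higher signal with VPA at E14.5. Of the 35 members measured, 24 had a higher mean log2 signal with VPA than with MC and 11 a lower one, beside 49.7% of all genes tested with a higher one. The limma adjusted p was under 0.05 in 21 of the higher and 4 of the lower members, beside 53.8% of all genes tested, 27.1% higher and 26.8% lower. The groups did not overlap in 25 members, beside 60.2% of all genes. The median log2 difference was 0.296 over the members and 0.356 without Slc25a26, beside -0.003 over all genes. This contrast was used to choose the gene, so nothing is read from these counts.

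**Figure D2:**
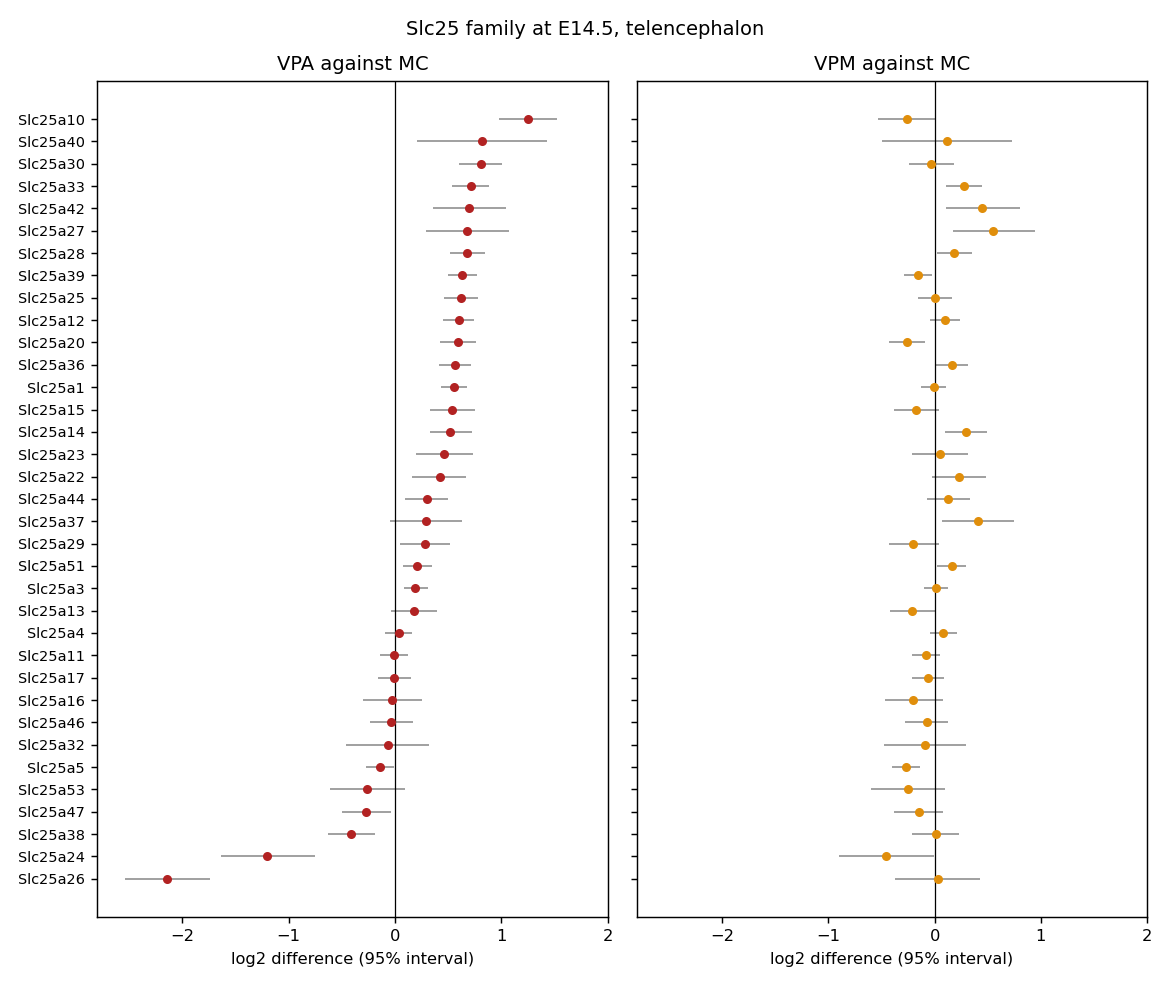
Log2 differences of the 35 tested members at E14.5, VPA minus MC and VPM minus MC, with 95% intervals. Slc25a26 at -2.14 and Slc25a24 at -1.20 lie lowest for VPA and Slc25a10 at 1.25 highest, while the VPM values lie between -0.46 and 0.55.

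Among carriers of carboxylic acids, the dicarboxylate carrier Slc25a10, which exchanges malate and succinate for phosphate, had the highest VPA value of the family. Its signal was 986, 1100 and 1130 with VPA, 326, 355 and 461 with VPM and 489, 446 and 417 with MC. The VPA arrays were above all others and the VPM arrays overlapped those of MC. The log2 difference was 1.25 against MC and 1.51 against VPM. The citrate carrier Slc25a1, which exports citrate for the synthesis of fatty acids, read 3210, 3430 and 3440 with VPA, 2260, 2180 and 2380 with VPM and 2310, 2320 and 2240 with MC, a log2 difference of 0.55 between VPA and MC. The oxoglutarate carrier Slc25a11 of the malate-aspartate shuttle had means of 2350 ± 32.6 with VPA and 2370 ± 30.8 with MC (SD, n = 3 each).

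The 3 measured relatives of the uncoupling proteins were all higher with VPA. Slc25a30 read 2670, 2460 and 3060 with VPA, 1600, 1330 and 1650 with VPM and 1520, 1600 and 1540 with MC. VPA and MC arrays did not overlap, and the log2 difference was 0.81. Slc25a27 and Slc25a14, also known as UCP4 and UCP5 and prominent in brain, had log2 differences of 0.68 and 0.52 between VPA and MC. Between VPM and MC these were 0.55 and 0.30. Between VPA and VPM they were 0.13 and 0.23, and there the arrays overlapped.

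The iron and glutathione carriers were also above MC, with log2 differences of 0.29 to 0.82. Slc25a39, which brings glutathione into the matrix, read 7520, 7840 and 7500 with VPA, 4300, 4740 and 4170 with VPM and 5220, 4730 and 4770 with MC. Its close relative Slc25a40 had the list's largest log2 difference, 0.82, with means of 225 ± 80.2 with VPA and 126 ± 32.7 with MC. The mitoferrins import iron for heme and iron-sulfur clusters. Slc25a28 (mitoferrin 2) had a log2 difference of 0.68 and Slc25a37 (mitoferrin 1), the form of developing red blood cells, one of 0.29. Between VPM and MC the differences were 0.18 for Slc25a28 and 0.41 for Slc25a37, so Slc25a37 was not higher with VPA than with VPM.

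Of the aspartate and glutamate carriers, Slc25a12 (aralar), the calcium-stimulated form of neurons and muscle, read 2460, 2370 and 2440 with VPA, 1610, 1880 and 1670 with VPM and 1610, 1580 and 1630 with MC. Its VPA arrays were above both other groups, a log2 difference of 0.60 against MC. The glutamate carrier Slc25a22 had a log2 difference of 0.42, and Slc25a13 (citrin), the relative best known from liver, 0.18. Slc25a18, the second glutamate carrier, was not tested at this age.

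The calcium-regulated carriers that exchange ATP-magnesium for phosphate did not go together. Slc25a25 and Slc25a23 had log2 differences of 0.62 and 0.46. Slc25a24 read 105, 95.6 and 99.8 with VPA, 133, 208 and 168 with VPM and 270, 174 and 255 with MC. The 3 VPA arrays were below all others, and the log2 difference was -1.20 against MC (95% interval -1.64 to -0.75) and -0.74 against VPM.

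Of 6 measured carriers of amino acids and carnitine, 4 were higher and 2 lower. The carnitine-acylcarnitine carrier Slc25a20, which admits fatty acids for oxidation, read 1410, 1530 and 1490 with VPA, 793, 838 and 832 with VPM and 923, 1100 and 941 with MC, a log2 difference of 0.59 between VPA and MC. The ornithine carrier Slc25a15 of the urea cycle had a difference of 0.54, and the branched-chain amino acid carrier Slc25a44 and the basic amino acid carrier Slc25a29 differences of 0.30 and 0.28. The glycine carrier Slc25a38, needed for the first step of heme synthesis, read 500, 599 and 468 with VPA, 722, 638 and 727 with VPM and 708, 664 and 697 with MC. It was among the lower members, at -0.41, with Slc25a47 at -0.27.

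The 8 measured cofactor and nucleotide carriers included Slc25a26 itself and spanned -2.14 to 0.71. The pyrimidine nucleotide carrier Slc25a33 read 736, 764 and 766 with VPA, 555, 534 and 590 with VPM and 461, 479 and 443 with MC, and here all 3 groups were separate. Slc25a36, a second pyrimidine nucleotide carrier, and the coenzyme A carrier Slc25a42 had log2 differences of 0.56 and 0.70, and the NAD carrier Slc25a51 one of 0.21. The peroxisomal carrier Slc25a17, Slc25a16 and the folate carrier Slc25a32 lay at -0.01, -0.03 and -0.07. The sign of these 3 values depended on single arrays.

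The ADP/ATP and phosphate carriers lay close to MC. The phosphate carrier Slc25a3 had a log2 difference of 0.19, and the ADP/ATP carriers Slc25a4 and Slc25a5 differences of 0.04 and -0.14. Slc25a46, an outer membrane relative that takes part in mitochondrial shape, was at -0.04, and the little-known Slc25a53 at -0.26. The other 32 probe sets of 16 members had the same sign as the chosen one in 30 cases, the exceptions being 1 each of Slc25a29 and Slc25a51, both at -0.01.

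**Figure D3:**
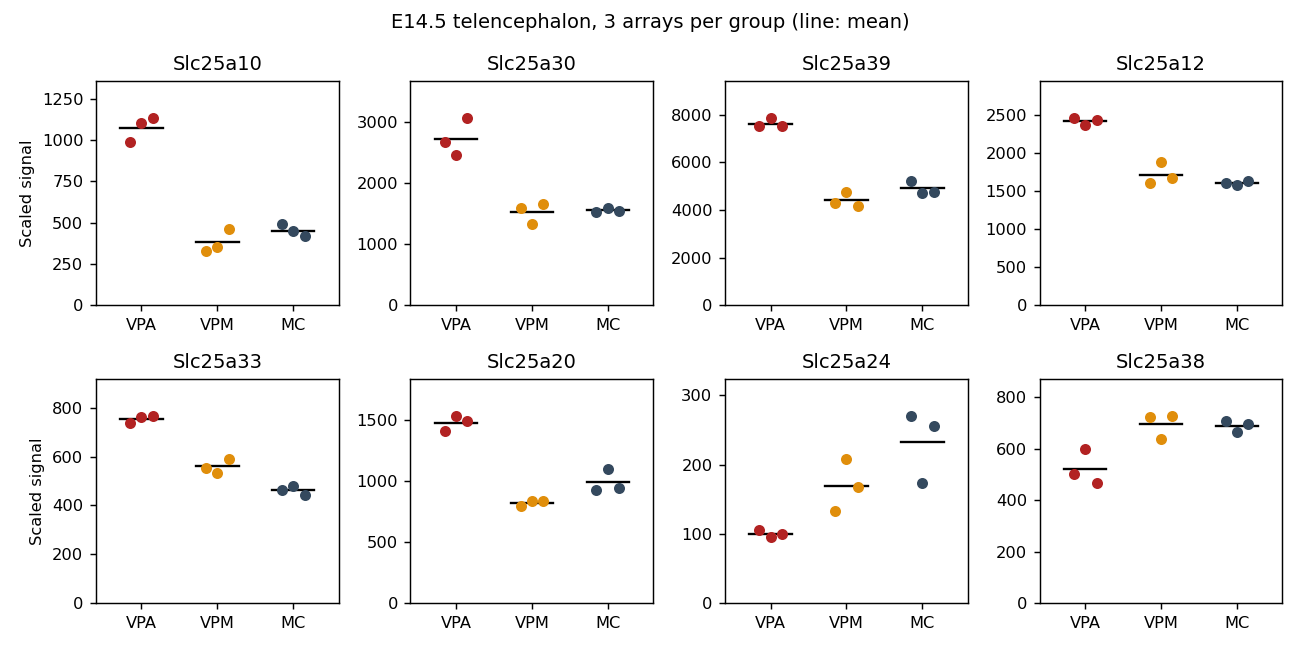
Scaled signal per array in VPA, VPM and MC telencephalon at E14.5 for 8 members; points are the 3 arrays of a group and lines are group means. The VPA arrays of Slc25a24 and Slc25a38 lie below the VPM and MC arrays, and those of Slc25a10, Slc25a30, Slc25a39, Slc25a12, Slc25a33 and Slc25a20 above them.

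Set directly against its amide at the same dose and time, VPA gave a lower signal of Slc25a26 and Slc25a24 and a higher one of Slc25a10 (1.51), Slc25a20 (0.85), Slc25a30 (0.84), Slc25a39 (0.79) and Slc25a15 (0.71). The adjusted p was under 0.05 in 18 of 35 members, 15 higher and 3 lower, beside 54.5% of all genes, 27.4% higher and 27% lower; nothing is read from this count either. The comparison shares its VPA arrays with that against MC.

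VPM against MC was tested for the 34 members other than Slc25a26. The limma test was passed by 3 of 34 (0 on the values as deposited and 1 with no filter), beside 11.4% of all genes, 5.64% higher and 5.79% lower. An unadjusted p under 0.05 was found in 12 members, beside 27.2% of all genes. Slc25a33 rose, at 560 ± 28.2 with VPM and 461 ± 17.5 with MC (SD, n = 3 each), a log2 difference of 0.28 (limma adjusted p = 0.0367). Slc25a20 fell, at 821 ± 24.4 and 988 ± 97.1, a difference of -0.26 (limma adjusted p = 0.0497), opposite in sign to its VPA value. The ADP/ATP carrier Slc25a5 fell too. It read 8490, 8980 and 8430 with VPM and 9990, 10900 and 10400 with MC, without overlap, and differed by -0.27 (limma adjusted p = 0.0152). This gene is X-linked, and the female Xist pattern was seen in 2 of 3 VPM and 1 of 3 MC arrays; its part was not tested. The groups did not overlap in 14 members, beside 32.6% of all genes. The largest differences that did not pass were those of Slc25a27 (0.55, limma adjusted p = 0.0664), Slc25a24 (-0.46) and Slc25a42 (0.45). The 3 calls rested on single arrays. None was left without MC replicate 2, and 1 was left without VPM replicate 3 (the array rich in choroid plexus genes), VPM replicate 1, MC replicate 1 or MC replicate 3. The MC arrays were shared with the VPA comparison.

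At E18.5 Slc25a26 in VPA brains lay among or just above the control values. In hippocampus it read 350, 219 and 255 with VPA, 245, 239 and 192 with VPM and 277, 245 and 251 with MC, and the groups overlapped. The log2 difference from MC was 0.06 for VPA (95% interval -0.31 to 0.44) and -0.20 for VPM (limma adjusted p = 0.9 and 0.724). In forebrain the gene read 311, 269 and 282 with VPA, 242, 252 and 185 with VPM and 256, 261 and 201 with MC. Here the VPA arrays lay above all others, but the difference of 0.27 from MC (95% interval -0.05 to 0.59, limma adjusted p = 0.395) did not pass, nor did that of 0.36 from VPM (limma adjusted p = 0.333). On the other probe set the VPA difference from MC was -0.11. For VPM against MC the difference on the probe set used was -0.09. The VPA effect differed between the tissues by -0.21 (limma adjusted p = 0.824).

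None of the 37 members tested in either tissue at E18.5 passed for VPA or VPM. In hippocampus 0% of all genes passed for VPA and 0.00866% for VPM, and in forebrain 2.11% and 0%; between VPA and VPM 0% and 0.53% passed. An unadjusted limma p under 0.05 was found with VPA in 5 members in hippocampus and 6 in forebrain, beside 13% and 16% of all genes, and with VPM in 1 in each, beside 10.4% and 5.44%. The member furthest from MC in forebrain was Slc25a37 (mitoferrin 1). It read 101, 171 and 108 with VPA, 143, 197 and 146 with VPM and 212, 232 and 197 with MC. The VPA and MC arrays did not overlap, and the log2 difference was -0.79 (limma adjusted p = 0.0745). It passed without VPA replicate 2, at -1.03 (limma adjusted p = 0.0305). With the replicate number as a block in the model it passed as well. In hippocampus Slc25a37 read 104, 120 and 143 with VPA, 201, 176 and 170 with VPM and 223, 176 and 165 with MC, a difference of -0.62 that did not pass (limma adjusted p = 0.215). The summed signal of the 7 matched red blood cell markers was lower with VPA as well, but only 1 of them reached the signal needed for a test. That marker was called lower in forebrain (log2 difference -1.1) and not in hippocampus (-0.78). The sum in forebrain was 238 to 282 with VPA, 385 to 561 with VPM and 443 to 605 with MC. In hippocampus it was 292 to 377, 442 to 467 and 404 to 646 in the same order, and its part in the Slc25a37 values was not tested.

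Other members nearest the threshold for VPA at E18.5 were the basic amino acid carrier Slc25a29, at -0.30 in hippocampus (limma adjusted p = 0.178), and the glutamate carriers Slc25a18 and Slc25a22, at 0.40 and 0.22 in forebrain (limma adjusted p = 0.151 and 0.133). For VPM, Slc25a10 stood at 322 ± 65.1 in hippocampus and 526 ± 64 in the MC group, a difference of -0.72 (limma adjusted p = 0.347). No member passed the test of a VPA effect that differed between the E18.5 tissues, with 3 of them, and 9.22% of all genes, at an unadjusted p under 0.05 and 0% of all genes passing. The value nearest to passing was that of Slc25a29, whose effect in hippocampus minus that in forebrain was -0.43 (limma adjusted p = 0.362).

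In the grown offspring no member passed for VPA or for the running wheel. The tests covered 39 members in adult hippocampus, 40 in adult cortex and 39 at P84. The share of all genes that passed was 0% for every contrast in adult hippocampus and at P84, and in cortex 0.00734% for VPA, 0.0147% for MC+RW and 0% for VPA+RW against VPA. An unadjusted limma p under 0.05 was found for VPA against MC in 4 members in adult hippocampus, 6 in cortex and 4 at P84, beside 11%, 10.4% and 4.94% of all genes. For the wheel it was found among vehicle offspring in 5 members in hippocampus and 4 in cortex, beside 8.65% and 13.4% of all genes, and among VPA offspring in 3 and 2, beside 8.49% and 6.25%.

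Slc25a26 was not distinguishable between the adult groups. In hippocampus the arrays read 525, 324 and 432 in VPA+RW, 386, 315 and 432 in VPA, 492, 392 and 410 in MC+RW and 489, 506 and 356 in MC offspring. In cortex they read 380, 378 and 235 in VPA+RW, 355, 449 and 309 in VPA, 346, 391 and 494 in MC+RW and 466, 398 and 516 in MC offspring, and in both tissues the groups compared overlapped. The VPA difference from MC was -0.25 in hippocampus and -0.32 in cortex (limma adjusted p = 0.622 and 0.608). At P84 the arrays read 387, 337, 317 and 296 with VPA and 390, 351, 427 and 393 with MC. These groups overlapped, and the difference was -0.23 (95% interval -0.45 to 0, limma adjusted p = 0.903). The 3 adult values were all below 0, but on the other probe set of the gene they were 0.26, 0.25 and 0.01.

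Among the members nearest to passing in the adults, in hippocampus Slc25a10 was at 532 ± 21.3 in VPA and 635 ± 23.7 in MC offspring, a log2 difference of -0.26 (limma adjusted p = 0.366), and Slc25a30 was at 0.22 (limma adjusted p = 0.426). In cortex Slc25a5 differed by 0.16, Slc25a39 by 0.19 and the coenzyme A carrier Slc25a42 by -0.19 (limma adjusted p = 0.36, 0.367 and 0.396). With the wheel, Slc25a42 was at 793 ± 114 in VPA+RW and 590 ± 62.3 in VPA hippocampus, a difference of 0.42 (limma adjusted p = 0.269), and Slc25a5 was at 0.21 for MC+RW in cortex (limma adjusted p = 0.179; 0.0379 without MC+RW replicate 3). At P84 the member of little-known substrate Slc25a34 read 169, 169, 239 and 141 with VPA and 71.3, 42, 140 and 119 with MC, nearly all low signals. Its difference of 1.07 did not pass (limma adjusted p = 0.903). The VPA effect did not pass as different between adult hippocampus and cortex in any member, nor did the wheel effect between VPA and MC offspring. The numbers with an unadjusted limma p under 0.05 were 4 between the tissues, 1 for the wheel in hippocampus and 2 in cortex, beside 7.12%, 4.54% and 6.23% of all genes, and 0% of all genes passed in each.

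Among the vehicle groups many members differed with age, at shares close to those of all genes and with a median size of difference below theirs (0.249 and 0.34, 0.678 and 0.824, 0.738 and 0.805 in the comparisons below, in order). Ages were separate sets of arrays, so age and set cannot be told apart. Between E14.5 telencephalon and E18.5 forebrain 20 of 40 members passed, 10 higher and 10 lower at E18.5, beside 54% of all genes, 30.2% higher and 23.8% lower. On the values as deposited, on which the median of all genes was 0.41 in place of 0.05, the split was 21 higher and 3 lower. The red blood cell marker sum was 443 to 605 at E18.5 and 11000 to 12700 at E14.5, and that of choroid plexus 17800 to 25400 and 224 to 283; their part was not tested. The glutamate carrier Slc25a18 averaged 161 ± 14.7 at E18.5 and 44.9 ± 14.3 at E14.5 (SD, n = 3 each). Its E14.5 arrays were under the minimum of 100, 1 of them under the floor. It thus entered the comparison only through later ages and its p is not given, though it is counted among the 10 higher. Slc25a45 was also too low for testing within the E14.5 set, and Slc25a2, Slc25a34 and Slc25a35 within both sets. Any of their calls in the counts carry the same limit. Slc25a40, Slc25a42 and Slc25a33 rose by 0.94, 0.69 and 0.58. The ADP/ATP carrier Slc25a5, the form of dividing cells, fell to 5680 ± 15.3, against 10400 ± 476, a difference of -0.88 (limma adjusted p = 1.36e-10). Slc25a30 fell by 1.10 and Slc25a13 by 1.37. Slc25a26 did not pass, at -0.12 (limma adjusted p = 0.522). Of 25 other probe sets of members that passed, 14 had the same sign and 2 were called the opposite way, of Slc25a12 and Slc25a25.

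Between E18.5 and P84 hippocampus, 32 of 40 members passed, 19 higher and 13 lower at P84, beside 82.6% of all genes, 45.1% higher and 37.5% lower (26 and 6 on the values as deposited, where the median of all genes was 0.50 in place of 0.13). The 40 included Slc25a2, Slc25a34 and Slc25a35, which were too low for testing within the E18.5 hippocampus set. They also included Slc25a13, which was too low for testing within the P84 set. These members entered through other MC groups. Any of their calls in the counts rest on a group too low for a test in its own set. Slc25a18 read 1100, 1210, 1190 and 1210 at P84 and 175, 112 and 170 at E18.5. The groups were far apart, a log2 difference of 2.98 (limma adjusted p = 4.39e-12). Slc25a18 is known as the glutamate carrier of astrocytes, and the astrocyte markers, 6 of 6 matched, summed to 33300 to 37600 at P84 and 15100 to 16200 at E18.5; their part was not tested. The calcium-regulated Slc25a23 rose to 5420 ± 123 at P84, against 867 ± 104 at E18.5, a difference of 2.65 (limma adjusted p = 6.34e-16). Slc25a42, the glutamate carrier Slc25a22 and the branched-chain carrier Slc25a44 rose by 1.98, 1.49 and 1.33. The carnitine-acylcarnitine carrier Slc25a20 went the other way. It read 305, 338, 330 and 323 at P84 and 1350, 1510 and 1180 at E18.5, a difference of -2.05 (limma adjusted p = 1.38e-13). The peroxisomal Slc25a17 and the citrate carrier Slc25a1 fell by 1.40 and 1.21. Of 23 other probe sets of members that passed, 14 had the same sign and 4 were called the opposite way, of Slc25a32, Slc25a36 and Slc25a51. Slc25a26 rose by 0.60 (95% interval 0.31 to 0.89, limma adjusted p = 0.000614), to 390 ± 30.8 at P84, against 258 ± 16.7 at E18.5.

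Adult cortex against E18.5 forebrain gave 33 of 40 members, 22 higher and 11 lower in the adult, beside 80.7% of all genes, 44.8% higher and 35.9% lower (22 and 6 on the values as deposited). Slc25a2, Slc25a34 and Slc25a35 were too low for testing within the E18.5 forebrain set, and Slc25a13 within the adult cortex set. Any of their calls in these counts carry the same limit as above. Slc25a18 rose by 3.03, to 1320 ± 125 in the adult, against 161 ± 14.7 (limma adjusted p = 1.24e-11), and Slc25a23 by 1.78. The astrocyte marker sum was 28100 to 30200 in adult cortex and 8480 to 10100 in E18.5 forebrain, and the oligodendrocyte marker sum 20100 to 23700 and 1140 to 1400. Slc25a20 fell by 2.05, to 252 ± 17.6, against 1040 ± 60.2 (limma adjusted p = 5.3e-13). Slc25a17 and Slc25a1 fell by 1.66 and 1.22. Slc25a26 rose by 0.94 (0.63 to 1.25, limma adjusted p = 1e-05), to 460 ± 59.2, against 240 ± 33.2. The tissues compared are not the same dissection. A female Xist pattern was seen in 2 of 3 forebrain and 0 of 3 cortex arrays, and its part was not tested. Of 29 other probe sets of members that passed, 18 had the same sign and 6 were called the opposite way, of Slc25a29, Slc25a32, Slc25a39 and Slc25a51.

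**Figure D4:**
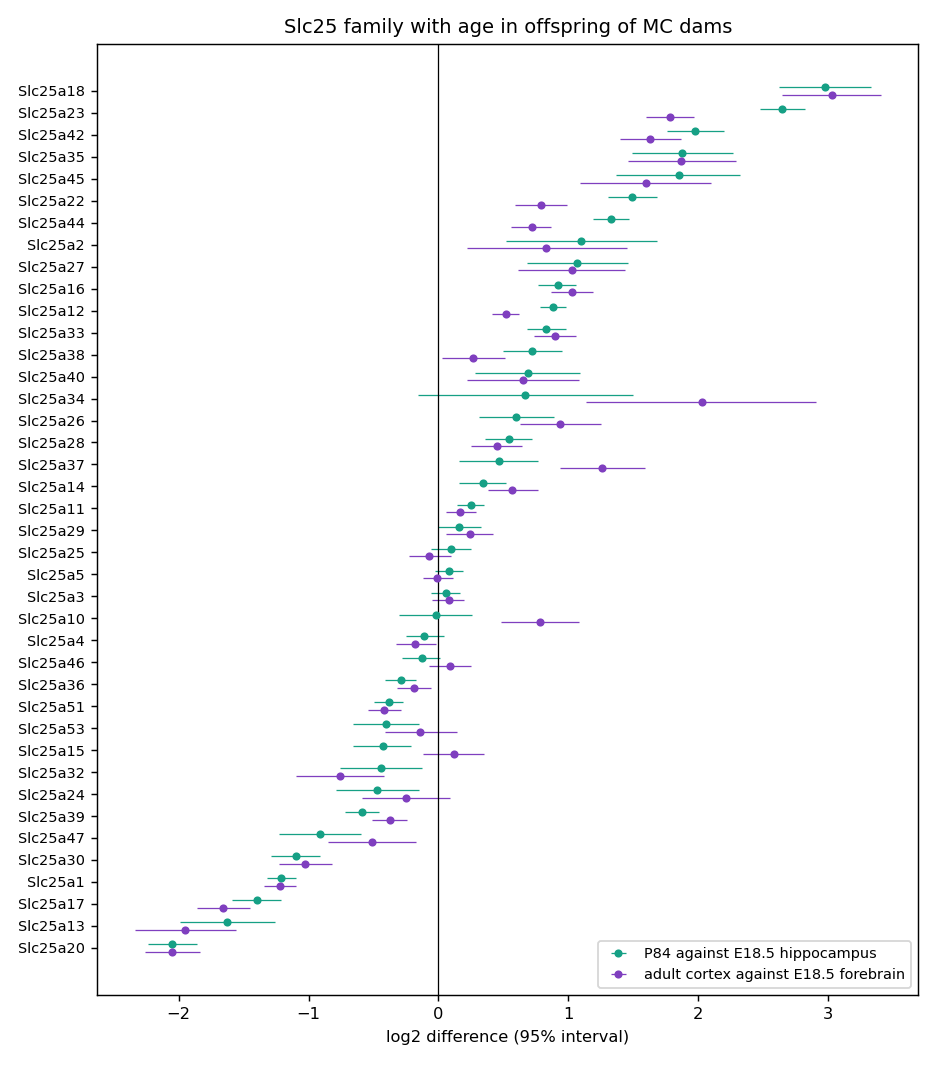
Log2 differences of the 40 tested members between ages in MC arrays, P84 minus E18.5 hippocampus and adult cortex minus E18.5 forebrain, with 95% intervals. Slc25a18 lies highest, at 2.98 and 3.03, and Slc25a20 lowest, at -2.05 in both.

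Within an age the tissues differed less. In E18.5 hippocampus against forebrain 9 of 40 members passed, 5 higher and 4 lower, beside 20.6% of all genes, 9.78% higher and 10.9% lower (0 and 3 on the values as deposited). Slc25a23 was lower in hippocampus, at 867 ± 104 and 1270 ± 41.9, a difference of -0.56 (limma adjusted p = 0.000165), as was its relative Slc25a25 at -0.54. Slc25a10 and Slc25a29 were higher, at 0.46 and 0.45. A female Xist pattern was seen in 0 of 3 of these hippocampus arrays and 2 of 3 forebrain arrays, and its part was not tested. In adult hippocampus against cortex 5 of 40 passed, 3 higher and 2 lower, beside 16.4% of all genes, 7.74% higher and 8.64% lower (0 and 1 on the values as deposited, and 3 in all without hippocampus MC replicate 2 or cortex MC replicate 1). The glutamate carrier Slc25a22 was higher in hippocampus by 0.34, and Slc25a37 lower by 0.69. Slc25a26 passed in neither, at 0.11 at E18.5 and -0.04 in the adult.

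Over the 19 group means the members whose log2 signal followed that of Slc25a26 most closely were Slc25a45 (Pearson 0.80), Slc25a18 (0.76) and Slc25a34 (0.71). The order depended on the E14.5 groups, on which the gene was chosen. Without them the values were 0.89, 0.92 and 0.83 over 16 groups, and Slc25a27 (0.94) was closest. The groups share ages and array sets, and no test was made.

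**Figure D5:**
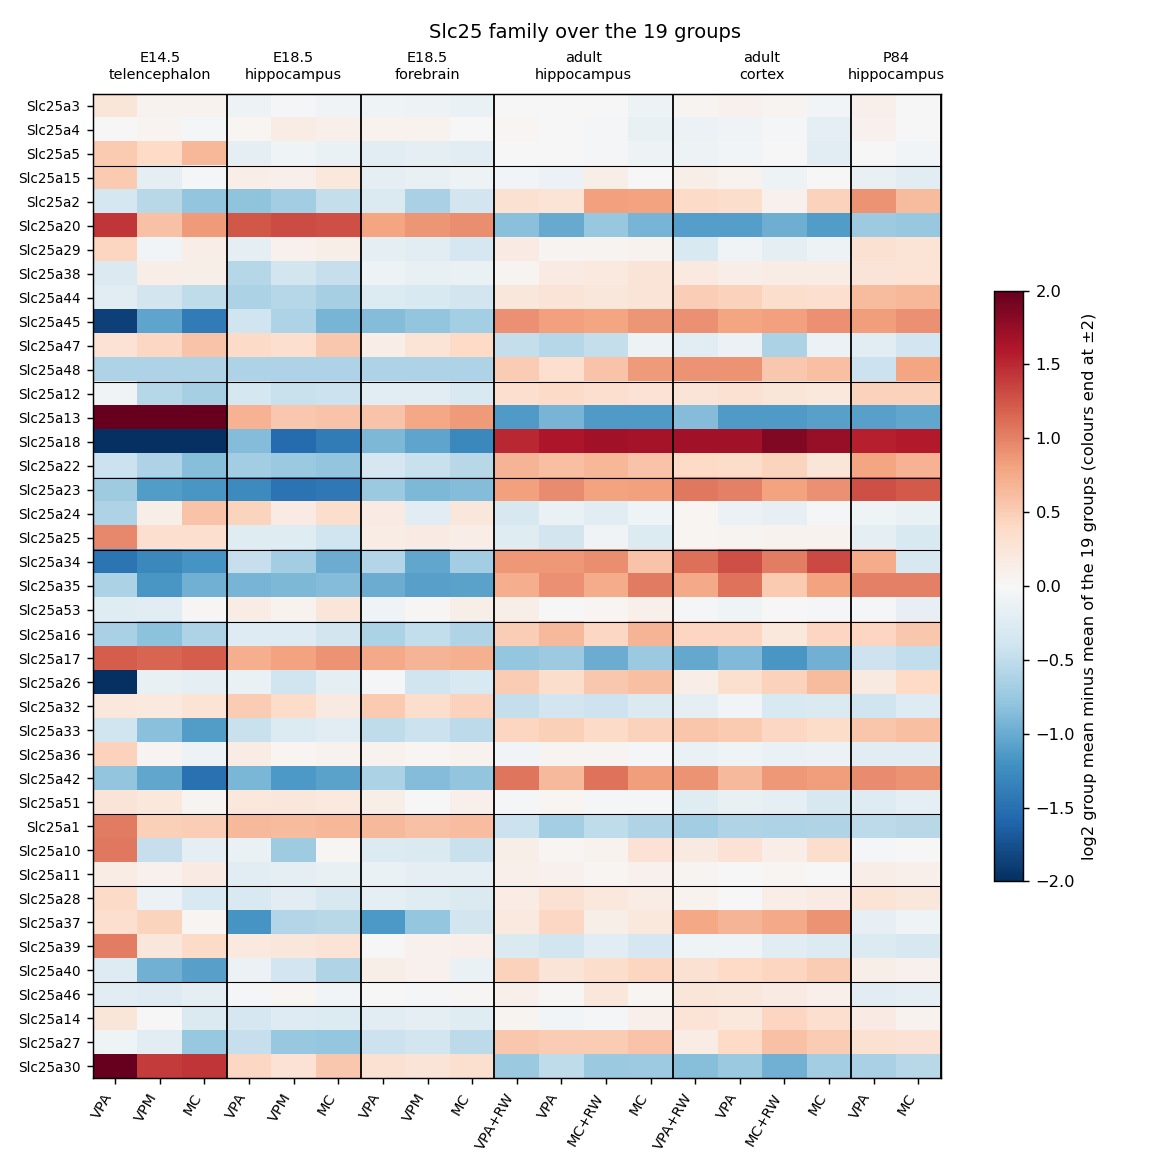
Mean log2 scaled signal of each member in the 19 groups, as the difference from the member's mean over all groups; rows are the 41 members tested in at least 1 set, ordered by role, columns are groups, and colours end at a difference of 2 either way. The E14.5 VPA column stands apart for Slc25a26 and Slc25a10, and Slc25a18, Slc25a23 and Slc25a20 differ mainly between embryonic and adult columns.

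Genes that make or use S-adenosylmethionine were set beside its carrier at E14.5, again as a description for VPA. Of 19 tested enzymes of S-adenosylmethionine and one-carbon metabolism, 8 were higher and 5 lower with VPA than with MC at an adjusted p under 0.05, with a median log2 difference of 0.05, beside 53.8% of all genes, 27.1% higher and 26.8% lower. They included Mthfd2, the mitochondrial folate dehydrogenase (1.05), its relative Mthfd2l (-0.89), Ahcyl2, related to the hydrolase of S-adenosylhomocysteine (1.12), and Mtap, which salvages methylthioadenosine (0.57). Of 20 mitochondrial users of S-adenosylmethionine 3 were higher and 9 lower, with a median of -0.25, and nothing is read from these counts. The lower ones included Atpsckmt (-1.52), which methylates a subunit of ATP synthase, the ribosomal RNA methyltransferases Mettl15 (-0.79) and Mrm3 (-0.45), and the transfer RNA methyltransferase Nsun3 (-0.60). Of 21 general mitochondrial proteins 5 were higher and 6 lower, with a median of 0.03. Among these the fusion protein gene Opa1 was at -0.34 and the outer membrane channel gene Vdac2 at 0.29.

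With VPM 4 of the 19 enzymes, 1 of the 20 mitochondrial users and 1 of the 21 general proteins passed, beside the 11.4% of all genes. The 10-formyltetrahydrofolate dehydrogenases Aldh1l1 and Aldh1l2 among the enzymes rose by 0.48 and 0.26 (limma adjusted p = 0.0151 and 0.0361). Mtap fell by 0.42 and Mtr, the methionine synthase, by 0.53 (limma adjusted p = 0.00972 and 0.0456). The mitochondrial user Atpsckmt fell by 0.49 (limma adjusted p = 0.0496), and the general protein gene Opa1 rose by 0.20 (limma adjusted p = 0.0263). Unlike the carriers, these genes were not refitted on the values as deposited or with single arrays left out. The carrier calls of this comparison fell in number there. For VPA at E18.5, no gene of the 3 lists passed in hippocampus, where 0% of all genes did, and only Mthfd2l in forebrain, where 2.11% did; it fell by 0.26 (limma adjusted p = 0.0396).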

How the data were processed

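Brain RNA of 59 samples was measured on 1-colour Affymetrix arrays with 45101 probe sets each. The authors deposited a linear signal intensity per probe set, made with GCOS per the submitters' processing notes; of its version, signal algorithm and target value nothing is known (not given in the sources used here). Deposited intensities were not at a common level, with a 2% trimmed mean of 197.6 to 419.4. Each array was scaled to 500, floored at 32 and put on the log2 scale; 18.2% to 38% of probe sets lay under the floor. The number of arrays limits the precision. A gene was named from a probe set with 1 symbol in the probe annotation (34958 of them), and a probe set shared by Slc25a37 and another gene was left out.

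Groups from the labels were compared in R 4.3.3 with limma 3.58.1 (data.table version 1.17.8 for reading). The model had a term for each group of a tissue and age, or for each MC group between ages; eBayes used the trend option, and p-values were adjusted by Benjamini-Hochberg over every gene tested (threshold 0.05). There were 21 comparisons and 4 interaction tests. Within groups arrays correlated at 0.972 to 0.994, and 0 of 1711 pairs were identical. Replicate numbers were not taken to pair the samples, because in no comparison did every same-numbered pair correlate above 0.1. For VPA against MC in E18.5 forebrain 2 of 3 pairs did, at up to 0.29. The same number did for MC+RW against MC in adult cortex. Replicate 3 had the lowest trimmed mean as deposited in each E18.5 group. Whether the numbers mark a shared run was not tested. The procedure was tested on simulated data.

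The members, gene lists and marker lists were chosen with earlier results of these data known. Besides Slc25a26, the rule names among members that passed without overlap the 8 that rose most and the 8 that fell most, the 3 with the smallest p where fewer than 3 passed, and up to 12 each way for VPA at E14.5. Motifs were chosen after values were seen. Alternatives were quantile normalization, values as deposited, log2(signal + 32), no filter, a filter at 200, every probe set or the other Slc25a26 probe set, a block for the replicate number, fitting only 2 groups, and leaving out each array. Figures were drawn in matplotlib 3.10.9 under Python 3.11.15, with pandas 2.3.3 and numpy 2.4.6.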

Additional observations from a re-analysis of the deposited data

Results flagged for a closer look

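Only members named for both comparisons by the rule above were searched, so the count does not cover the family. The tissues of E18.5 were not set against each other here, nor were adult hippocampus and cortex. In 7 cases every VPA array lay on one side of the MC mean in one set of arrays and on the opposite side in another. None of these differences between sets was tested. Slc25a26 had a log2 difference between VPA and MC of -2.14 at E14.5 and of 0.27 in E18.5 forebrain, and the E18.5 value of 0.27 also stood against -0.25 in adult hippocampus, -0.32 in adult cortex and -0.23 at P84. On its other probe set all 4 of these later signs turned, at -0.11 in E18.5 forebrain and 0.26, 0.25 and 0.01 in the older sets. Slc25a10 was at 1.25 at E14.5 and -0.26 in adult hippocampus. Slc25a42 was at 0.70 at E14.5 and -0.19 in adult cortex, and Slc25a5 at -0.14 at E14.5 and 0.16 in adult cortex.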

How the results depend on the processing

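The E14.5 difference of Slc25a26 between VPA and MC was -1.85 on the values as deposited, -1.68 on log2(signal + 32) and -1.21 on its other probe set; between VPA and VPM these were -1.83, -1.70 and -1.42, and between VPM and MC -0.01 on the values as deposited and 0.21 on the other probe set. The cause was not tested. The number of members that passed for VPM at E14.5 was 0 on the values as deposited and 1 with no filter. With the replicate number as a block it was 1 for VPA in E18.5 forebrain (Slc25a37); the block moved the count by over 1.5 times in no other comparison, and Slc25a33 no longer passed for VPM at E14.5 (limma adjusted p = 0.0561). It was 3 on the values as deposited for E18.5 hippocampus against forebrain, and 1 on those values and 8 over every probe set for adult hippocampus against cortex. On its other probe set Slc25a26 changed sign in 12 comparisons in which it had not passed: 0.03 for VPM in E18.5 hippocampus, -0.11 for VPA in E18.5 forebrain, 0.26 for VPA and -0.18 for VPA+RW in adult hippocampus, 0.25 for VPA and 0.06 for MC+RW in adult cortex, 0.01 at P84, 0.24, -0.16 and 0.12 between MC groups (E18.5 forebrain and E14.5, the E18.5 tissues, the adult tissues), and 0.19 and -0.14 for the VPA effect between E18.5 tissues and by wheel in hippocampus. On the values as deposited it was 0.31 and -0.10 in the earlier of those MC comparisons and 0.11 for VPA by wheel in cortex, and between E18.5 forebrain and E14.5 telencephalon Slc25a11 was 0.09, Slc25a37 0.03 and Slc25a39 0.14. Leaving out single arrays, Slc25a26 ran from -0.05 to 0.14 for VPM at E14.5, -0.13 to 0.21 for VPA in E18.5 hippocampus, -0.21 to 0.05 for VPM in E18.5 forebrain, -0.21 to 0.04 for MC+RW and 0 to 0.35 for VPA+RW in adult hippocampus, -0.31 to 0.05 for VPA+RW in adult cortex, -0.01 to 0.18 and -0.14 to 0.12 between the E18.5 and the adult tissues, -0.09 to 0.22 for the VPA effect between adult tissues and -0.13 to 0.22 for VPA by wheel in cortex. For VPA at E14.5 Slc25a16 ran from -0.13 to 0.04, Slc25a17 from -0.05 to 0.04, Slc25a32 from -0.23 to 0.04 and Slc25a46 from -0.14 to 0.04. The members passed without single arrays numbered 0 to 3 for VPM at E14.5, 0 to 1 for VPA in E18.5 forebrain, 0 to 1 for MC+RW in adult cortex and 3 to 5 between adult tissues. Low signals limit the precision of Slc25a26 with VPA at E14.5, of its other probe set and of members near the floor.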
